A study of Arabidopsis thaliana with 6 samples.

Results

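The long noncoding RNA (lncRNA) genes of Arabidopsis were examined as places where the nuclear protein ENAP1, alone or together with EIN2, was found on chromatin. All genes of biotype lncRNA in the RefSeq gene table on chromosomes 1 to 5 were taken, 3480 of the 37899 genes there. Each gene was widened by 200 bp on both sides, and it was counted as hit in a peak list when the summit of a peak, its highest point, lay in that window. The genes were then divided by whether they shared at least 1 bp with a protein-coding gene, which gave 1421 overlapping and 2059 non-overlapping lncRNA genes. Peak values played no part in choosing the genes.

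LncRNA genes are transcribed but do not encode a known protein. Some of their transcripts act on a neighbouring gene through transcription, RNA structure or chromatin, as antisense transcripts of the flowering repressor gene FLC do in Arabidopsis, and for most no role is known. ENAP1 associates with histones and with the C-terminal part of EIN2, the membrane protein that carries the signal of the gaseous hormone ethylene from the endoplasmic reticulum to the nucleus.

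The series asked where ENAP1, and ENAP1 with EIN2, sit on the genome with and without ethylene. For ENAP1 ChIP, ENAP1-bound DNA was pulled down by way of green fluorescent protein. For reChIP, the product of that step went through another pull-down, this time with anti-EIN2. Whole Col-0 seedlings were grown in the dark for 3 days at 24 °C, then exposed for 4 hours to 10 ppm ethylene in hydrocarbon-free air, or to that air alone. The labels do not name the tagged transgene or its promoter, and whole seedlings mix all cell types. Of 6 groups with 1 library each, 4 had peak lists (reChIP in ethylene and in air, ENAP1 ChIP in ethylene and in air), and the other 2 were inputs. No replicate check and no test across samples was possible, and all intervals below are exact binomial or Poisson 95% intervals that cover counting error only.

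Depth and the control library set what each list can show. The reChIP libraries kept 304818 tags in ethylene and 644263 in air, and the ENAP1 ChIP libraries kept 8811720 in ethylene and 8400099 in air. The lists held 9881, 9174, 8858 and 9712 peaks in that order. A q of 0.05 or lower was reached by 57.5% of ethylene and 19.4% of air reChIP peaks. In ENAP1 ChIP it was reached by 92.0% of peaks in ethylene and 95.5% in air. Hits were counted from peaks of any q unless a limit is given. The median pileup at a summit was 4 and 5 tags in ethylene and air reChIP, against 33.8 and 46.9 tags in ethylene and air ENAP1 ChIP. The ethylene reChIP peaks were called against the air reChIP library and therefore mark signal above air reChIP, not occupancy over input. Air reChIP and air ENAP1 ChIP shared their control library. For lists that share a library in this way, values are given side by side and the overlap of the pair is not given. Genes hit in all 4 lists, or in at least 1, were still counted, and for these counts the lists are not independent. Fold enrichment, pileup and −log10 q are the authors' own values for each peak, and they are compared only within a list.

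LncRNA genes were short, and a large part of them lay against protein-coding genes. Their median length was 343 bp, with quartiles at 250 and 506 bp and a maximum of 9515 bp, against a median of 2078 bp for the 27444 protein-coding genes. In the overlapping class (40.8% of lncRNA genes, median length 397 bp), 902 lay inside a single protein-coding gene, 93 contained a protein-coding gene, and 426 overlapped part of it. The non-overlapping class (59.2%, median length 314 bp) had a median gap of 754 bp to the nearest protein-coding gene. The gene table was used without strand or exons, so antisense and sense overlap, and exonic and intronic summits, were not told apart.

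In every list lncRNA genes were hit less often than protein-coding genes. Ethylene ENAP1 ChIP hit 451 lncRNA genes, or 13.0% (interval 11.9 to 14.1%), against 27.0% of protein-coding genes and 21.5% of all genes. Air ENAP1 ChIP hit 481 lncRNA genes, or 13.8% (lower bound 12.7%), against 28.4% of protein-coding genes and 22.7% of all genes. The ENAP1 ChIP intervals for lncRNA genes in ethylene and in air overlap.

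Both reChIP lists showed the same order of gene classes at lower lncRNA shares. Ethylene reChIP hit 321 lncRNA genes, or 9.22% (8.28 to 10.2%), against 24.7% of protein-coding genes and 21.0% of all genes. Air reChIP hit 268 lncRNA genes, or 7.7% (6.84 to 8.64%), against 21.1% of protein-coding genes and 17.6% of all genes. With the gene table shifted by 1000 to 10000 bp to either side, the lncRNA share was 6.87 to 7.87% in air reChIP, a range that takes in the unshifted 7.7%. In the other lists the unshifted share lay above the shifted range, which was 6.95 to 8.56% in ethylene ENAP1 ChIP, 7.24 to 9.43% in air ENAP1 ChIP and 7.41 to 8.22% in ethylene reChIP. At least 1 list hit 933 lncRNA genes (26.8%), against 55.1% of protein-coding genes, and 2547 lncRNA genes were hit in none.

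Overlap with a protein-coding gene went with a higher share in the ENAP1 ChIP lists. Ethylene ENAP1 ChIP hit 259 overlapping lncRNA genes (18.2%, interval 16.3 to 20.3%) and 192 non-overlapping ones (9.32%, 8.1 to 10.7%). Air ENAP1 ChIP hit 286 overlapping (20.1%, 18.1 to 22.3%) and 195 non-overlapping genes (9.47%, 8.24 to 10.8%). Ethylene reChIP showed the same separation, with 189 overlapping (13.3%, 11.6 to 15.2%) and 132 non-overlapping genes (6.41%, 5.39 to 7.56%). Air reChIP did not separate the classes, since its 116 overlapping (8.16%, 6.79 to 9.71%) and 152 non-overlapping genes (7.38%, 6.29 to 8.6%) have intervals that overlap. Overlapping lncRNA genes are also the longer class. In ethylene ENAP1 ChIP and in ethylene reChIP the intervals of the classes overlap in each of the 6 length classes. At 601 to 1000 bp, 22.1% of overlapping and 13.4% of non-overlapping genes were hit in ethylene ENAP1 ChIP, and 14.4 and 12.7% in ethylene reChIP. In air ENAP1 ChIP the intervals separate only up to 300 bp (10.7 to 17.4% and 5.86 to 9.37%). The overlapping share was the higher in every length class of both ENAP1 ChIP lists.

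**Figure D1:**
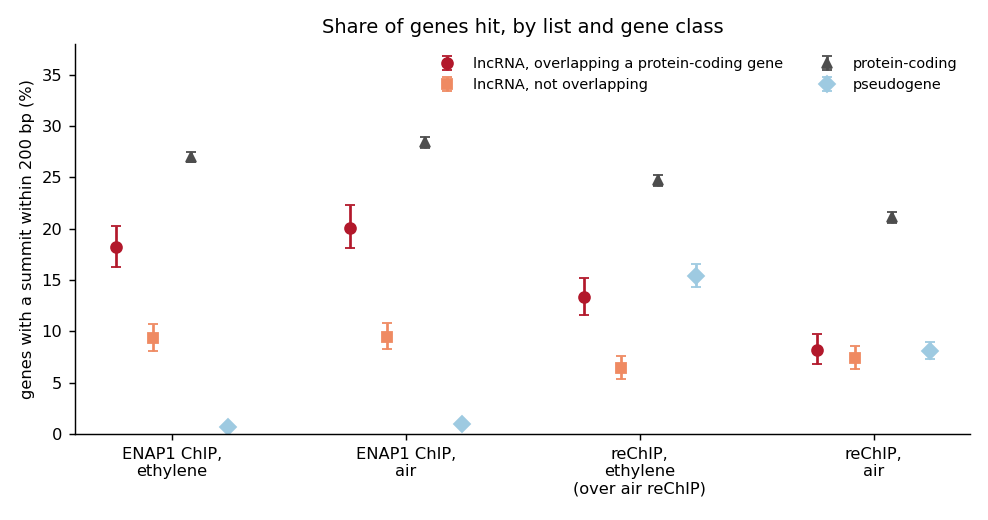
Share of genes with a peak summit within 200 bp (vertical axis, %), for each of the 4 peak lists (horizontal axis) and 4 gene classes; points are shares and bars exact binomial 95% intervals. Overlapping lncRNA genes lie above non-overlapping ones in the ENAP1 ChIP lists and in ethylene reChIP (18.2 against 9.32% in ethylene ENAP1 ChIP), while in air reChIP the intervals overlap (8.16 and 7.38%).

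Among overlapping lncRNA genes the share differed with how they overlapped, and gene length was not adjusted for. Overlapping lncRNA genes over 2000 bp, however they overlapped, were hit in 43.4% of cases in ethylene and 48.4% in air ENAP1 ChIP. Those that contained a protein-coding gene were hit most often, in 38.7% of cases in ethylene ENAP1 ChIP and 45.2% in air ENAP1 ChIP, and in 40.9% in ethylene reChIP and 21.5% in air reChIP. For these 93 genes the ENAP1 ChIP intervals were 28.8 to 49.4% in ethylene and 34.8 to 55.8% in air. Those that overlapped part of a protein-coding gene were hit by ENAP1 ChIP in 26.1% (ethylene) and 27.7% (air) of cases. Their intervals were 21.9 to 30.5% and 23.5 to 32.2%. Those inside a single protein-coding gene were hit in 12.4% (ethylene) and 14.0% (air). That is below the share of protein-coding genes as a whole, again with no adjustment for length.

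Summits at the overlapping class seldom lay away from protein-coding genes, in part by construction. For an lncRNA gene inside a protein-coding gene, every summit in its window also lies within 200 bp of that gene. Such genes made up 112 of the 259 overlapping hits in ethylene ENAP1 ChIP and 126 of the 286 in air. Of the overlapping lncRNA genes hit, 90.7% in ethylene ENAP1 ChIP and 90.9% in air ENAP1 ChIP had a summit that also lay within 200 bp of a protein-coding gene, and the share was 96.8% in ethylene reChIP and 87.1% in air reChIP. Protein-coding genes that overlap an lncRNA gene were hit in 31.9% of cases in ethylene ENAP1 ChIP and 33.4% in air, against 26.7 and 28.1% for other protein-coding genes. The non-overlapping class lies outside protein-coding genes by definition. In it, 171 hit genes in ethylene ENAP1 ChIP and 177 in air had all their summits more than 200 bp from any protein-coding gene. The numbers were 122 in ethylene reChIP and 139 in air reChIP.

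Pseudogenes served as a further class of genes. In ENAP1 ChIP the non-overlapping lncRNA genes, hit in 9.32% of cases in ethylene and 9.47% in air, lay far above pseudogenes, at 0.689% in ethylene and 0.945% in air. In ethylene reChIP the non-overlapping lncRNA genes lay below pseudogenes, at 6.41% against 15.4%. In air reChIP they stood at 7.38% against 8.09%, which lies inside the lncRNA interval. Pseudogene windows were longer, with 10.9 Mb for 3917 genes against 1.43 Mb for the 2059 non-overlapping lncRNA genes. Per base the order in reChIP was the opposite, with 81.9 summits per Mb at non-overlapping lncRNA genes against 63.6 at pseudogenes in ethylene, and 100 against 31.9 in air.

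In all 4 lists the shares of lncRNA and of protein-coding genes were highest over 2000 bp, though not in step with length across the shorter classes. Ethylene ENAP1 ChIP hit 8.32% of lncRNA genes of up to 300 bp and 42.5% of the 127 lncRNA genes over 2000 bp. Among protein-coding genes of the same lengths it hit 9.33 and 34.9%. Protein-coding genes were then weighted to the lengths of lncRNA genes. On that basis lncRNA genes stood at 13.0% against 9.9% for protein-coding genes in ethylene ENAP1 ChIP, and at 13.8% against 10.7% in air, and both weighted values lie below the lncRNA intervals. The excess lay in the overlapping class, at 18.2% against a weighted 12.3% in ethylene and 20.1% against 13.2% in air. Non-overlapping lncRNA genes stood at 9.32% against 8.28% in ethylene and 9.47% against 9.05% in air, and both weighted values lie inside their intervals. For all lncRNA genes the difference, lncRNA minus protein-coding, was 3.06 percentage points in ethylene and 3.08 in air with weighting, and -14.0 and -14.6 points without it.

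In reChIP the weighted shares were closer to those of lncRNA genes. In ethylene reChIP lncRNA genes stood at 9.22% against a weighted 8.72% for protein-coding genes, a difference of 0.504 points. In air reChIP they stood at 7.7% against 8.04%, a difference of -0.337 points. Both weighted values lie inside the intervals of the lncRNA shares. By class, ethylene reChIP had 13.3% against a weighted 11.0% for overlapping and 6.41% against 7.12% for non-overlapping lncRNA genes. Air reChIP had 8.16% against 9.76% for overlapping and 7.38% against 6.85% for non-overlapping ones.

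**Figure D2:**
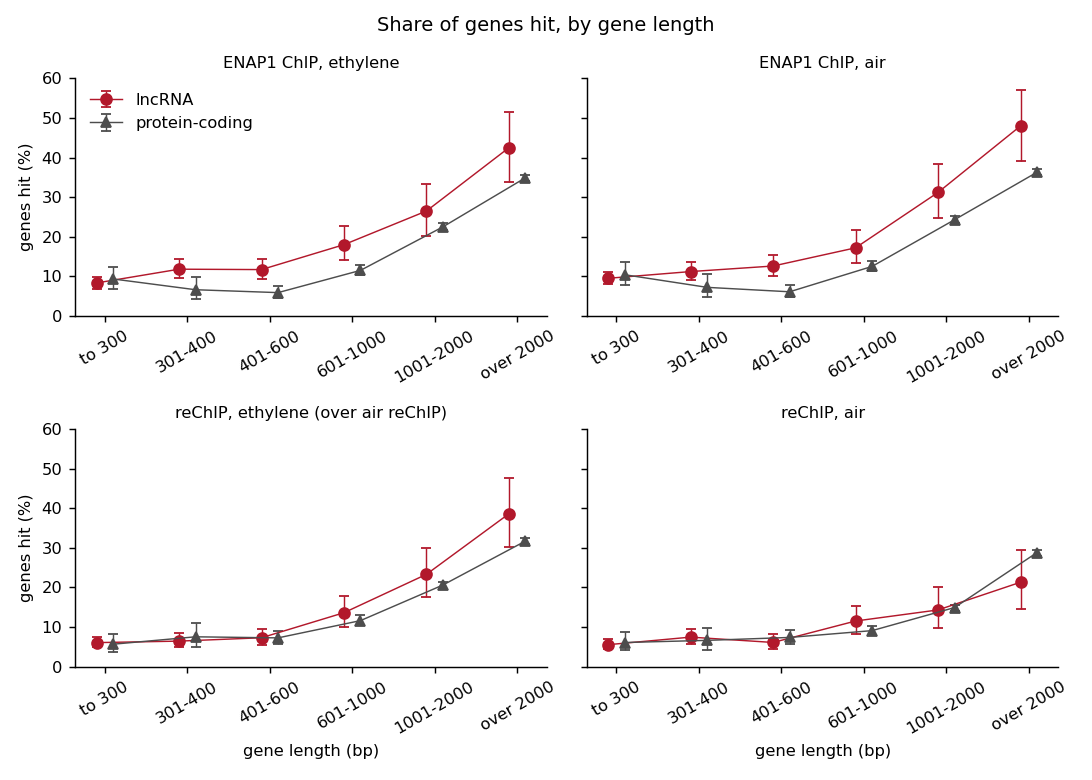
Share of genes hit (vertical axis, %) in 6 classes of gene length (horizontal axis, bp) for lncRNA and protein-coding genes, 1 panel per peak list; bars are exact binomial 95% intervals. In ethylene ENAP1 ChIP lncRNA genes of 401 to 600 bp were hit in 11.7% of cases against 5.88% of protein-coding genes, and shares of both classes are highest over 2000 bp.

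Measured per base, summits were denser at lncRNA genes as a group than over the chromosomes as a whole, by the least in air reChIP. The lncRNA windows made up 2.58% of the chromosomes and held 5.09% of the ethylene and 4.99% of the air ENAP1 ChIP summits, and 3.32% of the ethylene and 2.92% of the air reChIP summits. That is 146 summits per Mb in ethylene ENAP1 ChIP and 157 in air, against 101 and 110 in protein-coding windows. In ethylene reChIP it is 107 per Mb at lncRNA genes against 105 at protein-coding genes, and in air reChIP 87.0 against 90.4. Overlapping lncRNA windows were the denser class in ethylene ENAP1 ChIP (169 per Mb, against 122 for non-overlapping ones), in air ENAP1 ChIP (185 and 126) and in ethylene reChIP (128 and 81.9). Non-overlapping windows in ethylene reChIP were thus near the 82.9 per Mb of the whole chromosomes. In air reChIP the overlapping windows had 75.9 per Mb and the non-overlapping ones 100, beside 77.0 over the whole chromosomes.

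Away from protein-coding genes the ENAP1 ChIP summits were denser at lncRNA genes than elsewhere, although most of them lay elsewhere. In ethylene 181 lay in lncRNA windows and 1406 elsewhere, and in air 189 and 1605. More than 200 bp from any protein-coding gene, ethylene ENAP1 ChIP had 124 summits per Mb in lncRNA windows (interval 106 to 143) against 30.9 elsewhere (29.3 to 32.6). Air ENAP1 ChIP had 129 per Mb (111 to 149) against 35.3 (33.6 to 37.1). The 45.5 Mb elsewhere include 21.2 Mb beyond 2000 bp from protein-coding genes. Mb were counted as plain span, with no allowance for stretches where reads could not be placed, and the effect of this was not tested. That part was poor in ENAP1 ChIP summits, with 9.36 per Mb in ethylene and 11.2 in air. In reChIP the contrast was smaller, with 79.2 per Mb (lower bound 65.4) against 48.8 (46.7 to 50.8) in ethylene and 99.7 (84.2 to 117) against 55.0 (52.9 to 57.2) in air.

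The contrast held at each distance from protein-coding genes in ENAP1 ChIP, a split added after the data were seen. Between 201 and 500 bp from a protein-coding gene, ethylene ENAP1 ChIP had 166 summits per Mb in lncRNA windows against 54.4 elsewhere. Beyond 2000 bp it had 85.6 per Mb, from 27 summits, against 9.36 elsewhere, and air ENAP1 ChIP had 101 per Mb, from 32 summits, against 11.2. In ethylene ENAP1 ChIP the ratio was 3.05, 2.57 and 2.46 in the classes up to 2000 bp and 9.14 beyond. The plain span used for Mb limits the last value in particular. In ethylene reChIP between 201 and 500 bp the interval in lncRNA windows (39.2 to 96.8 per Mb) took in the value elsewhere (49.6), and in air reChIP it did so between 501 and 1000 bp (70.6 to 132 against 70.8) and between 1001 and 2000 bp (58.4 to 119 against 66.9).

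**Figure D3:**
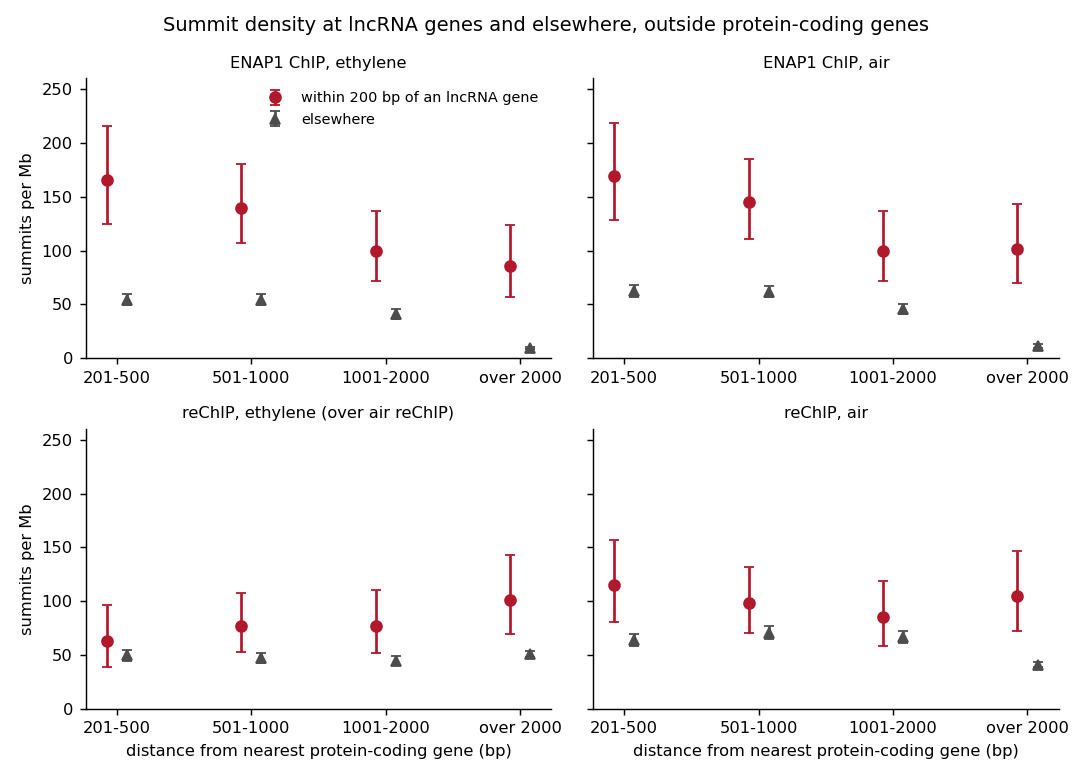
Peak summits per Mb (vertical axis) within 200 bp of an lncRNA gene and elsewhere, in 4 classes of distance from the nearest protein-coding gene (horizontal axis, bp), 1 panel per peak list; bars are exact Poisson 95% intervals. In both ENAP1 ChIP panels the lncRNA points lie above the others in each class, by 85.6 against 9.36 per Mb beyond 2000 bp in ethylene. Mb are plain span, with no allowance for stretches where reads could not be placed.

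Within the non-overlapping class the shares were also taken by gap to the nearest protein-coding gene, in classes of up to 200, 201 to 500, 501 to 1000, 1001 to 2000 and over 2000 bp. Ethylene ENAP1 ChIP hit 13.6, 9.62, 8.75, 9.95 and 6.15% of the genes in these classes, and air ENAP1 ChIP 14.0, 9.62, 8.94, 8.56 and 7.95%. The nearest class was highest in both, and the 3 middle classes have overlapping intervals. Ethylene reChIP hit 7.95, 6.49, 4.56, 6.25 and 7.95%, and air reChIP 9.09, 8.05, 7.98, 4.63 and 7.69%, with no steady order.

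Most hit lncRNA genes had a summit in the gene body in all 4 lists. The share was 68.7% in ethylene and 70.5% in air ENAP1 ChIP, and 71.3% in ethylene and 64.2% in air reChIP. It was not adjusted for the part of each window that the gene body makes up. For the non-overlapping class summit density changed at the gene edge. Ethylene ENAP1 ChIP had 182, 215 and 211 summits per Mb in successive 100 bp steps inward from the edge, against 80.1, 51.0 and 51.0 in successive steps outward.

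Air ENAP1 ChIP gave a like profile, with 187, 211 and 253 per Mb inward against 77.7, 60.7 and 46.1 outward. The overlapping class had a less marked edge, with 250 and 229 per Mb inward in ethylene against 172 and 179 outward. In ethylene reChIP the non-overlapping class had 102 and 139 per Mb inward against 70.4 and 31.6 outward, from 42, 33, 29 and 13 summits. In air reChIP it had 143 and 92.7 inward against 82.6 and 58.3 outward.

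**Figure D4:**
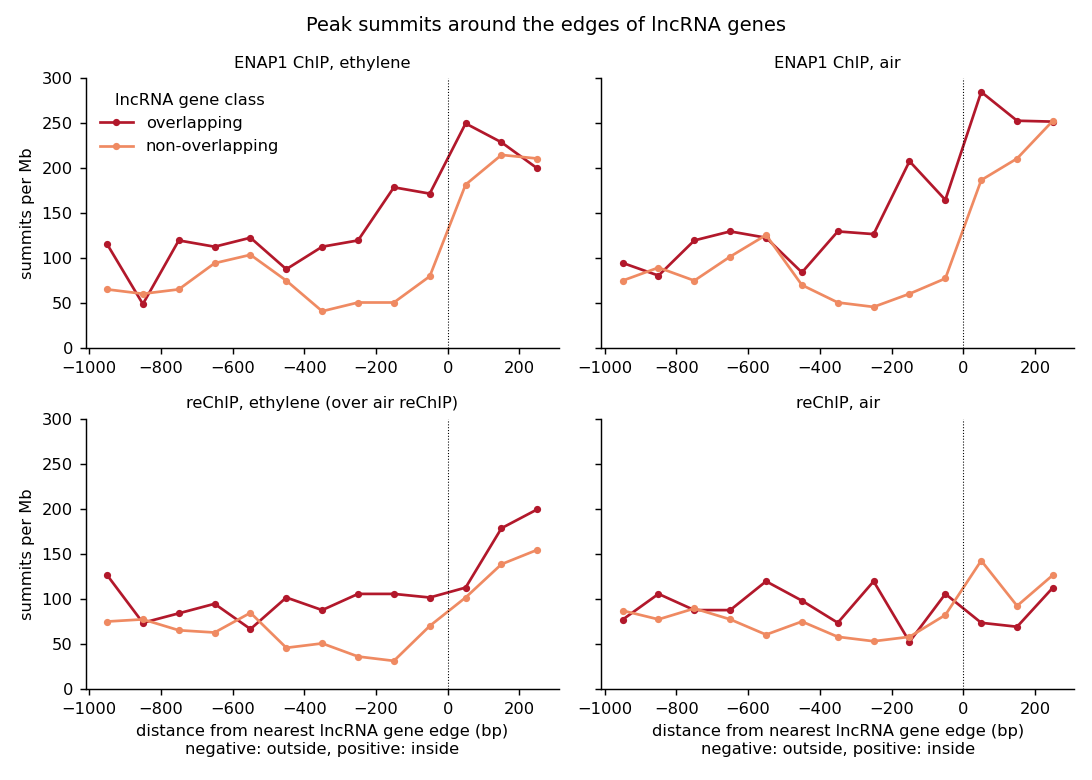
Summits per Mb (vertical axis) in 100 bp steps around the nearest lncRNA gene edge (horizontal axis, bp, negative outside the gene and positive inside) for overlapping and non-overlapping lncRNA genes, 1 panel per peak list, with no error bars. For non-overlapping genes in ethylene ENAP1 ChIP the density is 182 per Mb in the first step inside and 80.1 in the last step outside.

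The window width set many of the calls. With no widening 310 lncRNA genes were hit in ethylene ENAP1 ChIP, 339 in air ENAP1 ChIP, 229 in ethylene reChIP and 172 in air reChIP, and with 500 bp there were 577, 613, 448 and 412. Close to the limit itself the numbers were smaller. In ethylene ENAP1 ChIP 39 lncRNA genes had summits only in the outermost 50 bp of the window, and 26 further genes had a summit in the next 50 bp outside it. The numbers were 43 and 30 in air ENAP1 ChIP, 18 and 20 in ethylene reChIP, and 9 and 27 in air reChIP.

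Peaks at lncRNA genes had the enrichment usual for their list. Their median fold was 2.86 in ethylene ENAP1 ChIP, 2.71 in air ENAP1 ChIP, 3.39 in ethylene reChIP and 3.12 in air reChIP, against list medians of 2.86, 2.69, 3.39 and 3.16. The overlapping and non-overlapping classes differed in how many of their ENAP1 ChIP peaks reached a −log10 q of 5. In ethylene that was 60.7% for overlapping and 39.1% for non-overlapping lncRNA genes, against 51.6% of the list, and in air 65.8 and 46.7% against 59.5%. Very few reChIP peaks reached that level (3.29 and 0.855% in ethylene, 0 and 2.1% in air).

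By chromosome the shares were taken without intervals, so their variation cannot be set against counting error. Ethylene ENAP1 ChIP hit between 10.2% of lncRNA genes on chromosome 3 and 14.3% on chromosome 5, and air ENAP1 ChIP between 10.9 and 15.6% on the same chromosomes. Ethylene reChIP hit 7.8 to 10.2% and air reChIP 6.9 to 8.88%. Protein-coding genes were hit in 25.9 to 28.2% of cases in ethylene and 26.7 to 29.6% in air ENAP1 ChIP. In reChIP their shares were 22.8 to 26.4% in ethylene and 20.1 to 22.1% in air.

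Ethylene and air ENAP1 ChIP hit largely the same lncRNA genes. Their control libraries differed, and 372 lncRNA genes were hit in both, which is 82.5% of the ethylene and 77.3% of the air genes. Protein-coding genes gave 84.0 and 79.8%. At the shared lncRNA genes the nearest summits lay a median of 21 bp apart, 92.2% lay within 100 bp, and the peaks overlapped at 370 genes.

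Genes hit in a single treatment had peaks of lower median fold. They were picked by whether a peak passed the calling limit, which rests on the same values, so the lower fold is not a separate result. No like comparison was made for protein-coding genes. The 79 lncRNA genes hit in ethylene alone had a median fold of 2.53, against 3.02 in the same list for genes hit in both treatments, and at 10 of them the ethylene peak still overlapped an air peak. The 109 genes hit in air alone had a median fold of 2.36, against 2.98, and at 5 of them the air peak overlapped an ethylene peak. The difference in fold between treatments was not tested.

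Among single-treatment genes whose peak overlapped no peak of the other treatment, those with the highest folds were picked after their values were seen. AT3G01675, which overlaps the receptor-like protein gene RLP32, had a 4.03-fold ethylene peak at 3:1645185-1645390. AT5G02645, 169 bp from NAC086, a NAC transcription factor gene, had a 3.76-fold ethylene peak at 5:5674790-5675201. In air alone AT5G04355, 913 bp from the MADS-box gene AGL101, had a 3.72-fold peak at 5:9519213-9519437, and AT1G09627, overlapping the gene PUB43, had a 3.65-fold peak at 1:28655145-28655514.

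Ethylene reChIP and ethylene ENAP1 ChIP shared fewer lncRNA genes. Both hit 110, which is 34.3% of the reChIP and 24.4% of the ENAP1 ChIP genes, against 41.6 and 38.1% for protein-coding genes. Ethylene ENAP1 ChIP hit 13.0% of all lncRNA genes and 27.0% of all protein-coding genes, and ethylene reChIP 9.22 and 24.7%. The shared percentages lay above these in both gene classes. The lower shared percentages of lncRNA genes were not adjusted for their lower shares as a whole. For overlapping lncRNA genes the shares were 42.3 and 30.9%, and for non-overlapping ones 22.7 and 15.6%. Air reChIP, set beside ethylene ENAP1 ChIP because the air lists share a control, had 76 lncRNA genes in common with it, 28.4% of the reChIP and 16.9% of the ENAP1 ChIP genes, against 37.9 and 29.6% for protein-coding genes. Air reChIP hit 7.7% of all lncRNA genes and 21.1% of all protein-coding genes, and again no adjustment was made.

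**Figure D5:**
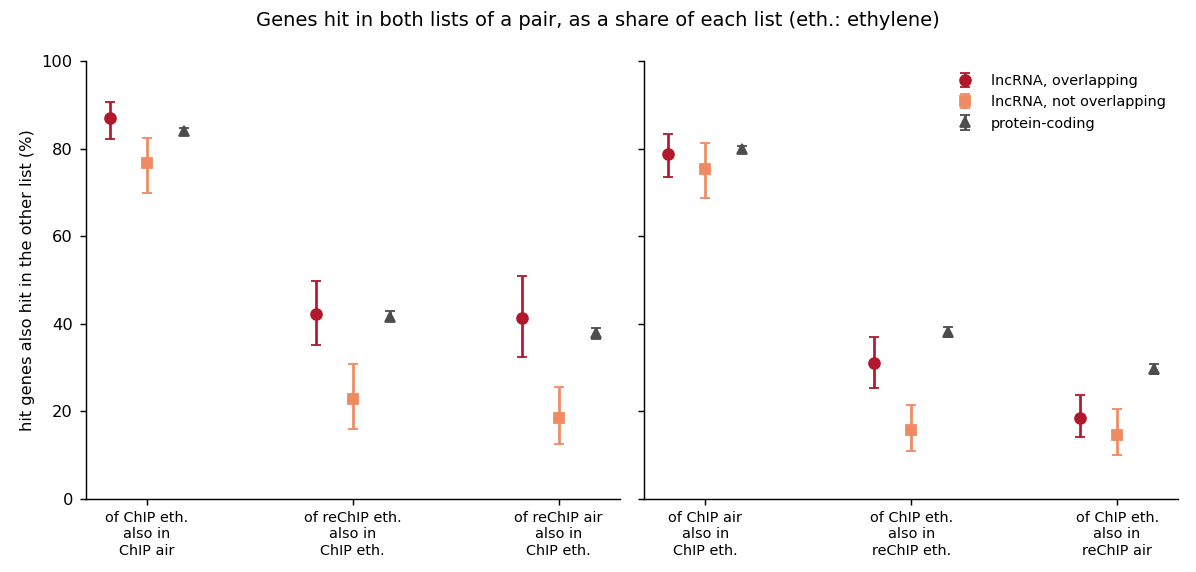
Of the genes hit in a list, the share also hit in the other list of the pair (vertical axis, %), for overlapping lncRNA, non-overlapping lncRNA and protein-coding genes; each panel takes the share of a different member of the pair and bars are exact binomial 95% intervals. The ethylene and air ENAP1 ChIP points lie between 75.4 and 86.9%, and the points of pairs with reChIP are all at 42.3% or lower.

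Peak by peak, reChIP peaks at lncRNA genes lay on an ethylene ENAP1 ChIP peak more often than reChIP peaks in general. In ethylene reChIP 26.2% did so (interval 21.5 to 31.3%), against 17.4% of the whole list. In air reChIP 20.9% did so (16.2 to 26.3%), against 10.1% of the list. By class it was 27.8% for overlapping (20.2 to 36.5%) and 14.7% for non-overlapping lncRNA genes. The latter interval (9.33 to 21.6%) takes in the value of the list. Ethylene ENAP1 ChIP summits were themselves denser in lncRNA windows (146 per Mb) than over the whole chromosomes (74.3), and no adjustment was made for this. Among ethylene reChIP peaks with q of 0.05 or lower the shares were 34.7% at lncRNA genes and 24.1% in the list. By class they were 41.4% for overlapping and 20.9% for non-overlapping lncRNA genes.

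In ethylene reChIP the overlapping class lay above the list and the non-overlapping class did not separate from it. Of its 213 peaks, 64 lay on an ENAP1 ChIP peak (interval 24.0 to 36.7%). In the non-overlapping class 19.7% of peaks did (12.9 to 28.0%), and that interval takes in the 17.4% of the list.

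The highest ENAP1 ChIP folds in the overlapping class were at genes whose partners have varied roles. AT1G51645, with 89.2% of its length in EXO70G2, a gene for a subunit of the exocyst that tethers secretory vesicles, had a peak of 13.3-fold in ethylene at 1:19149307-19149742 and of 12.2-fold in air at 1:19149299-19149893. Its ethylene reChIP peak was 4.62-fold with a pileup of 8 tags, and it had no air reChIP summit. None of its summits lay in a protein-coding gene. The nearest one was 249 bp from the ethylene and 255 bp from the air ENAP1 ChIP summit, and 233 bp from the ethylene reChIP summit. AT1G71528, which overlaps AT1G71530, followed with 11.3-fold in ethylene and 10.1-fold in air, and in air reChIP it had 3.34-fold with 5 tags. That air reChIP peak had a q above 0.05. At both genes the ENAP1 ChIP summits of ethylene and air lay close to each other relative to the gene edge, at 58 and 52 bp inside AT1G51645 and 3 and 16 bp outside AT1G71528.

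Partners of the next genes include metabolic enzymes. AT4G06215, inside ATARD2, which encodes an acireductone dioxygenase of the methionine cycle, had 10.1-fold in ethylene and 8.5-fold in air. Both summits lay in a protein-coding gene, 178 and 188 bp outside the lncRNA gene. AT1G05562, inside the UDP-glucosyltransferase gene UGT75B1, had 10.1-fold in ethylene and 8.14-fold in air, and an ethylene reChIP peak of 6.79-fold with 9 tags at 1:1645296-1645623. AT1G05213, covered by CCR1, a cinnamoyl-CoA reductase gene of lignin synthesis, and the metal transporter gene NRAMP6, had 7.76-fold in ethylene and 9.55-fold in air. At the last gene the ENAP1 ChIP summits lay 44 and 40 bp outside the lncRNA gene, and the air reChIP list had 4.07-fold with 6 tags.

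Other overlapping genes ranked high in a single ENAP1 ChIP list. AT1G09357, 18.5% of which lies in AT1G72950, had 6.63-fold in ethylene and 11.2-fold in air. It was hit in all 4 lists, with 4.75-fold in ethylene reChIP and 3.16-fold in air reChIP. Its air reChIP peak had a q above 0.05, and its hit in that list rests on this peak alone. AT3G07125, in AT3G45420, had 5.62-fold in ethylene and 9.55-fold in air. AT1G09783, mostly in UNE2, had 9.46-fold in ethylene, 6.5-fold in air, and 4.81-fold with 9 tags in air reChIP. Its ENAP1 ChIP summits lay 75 and 57 bp outside the lncRNA gene. All of these genes had ENAP1 ChIP summits in both treatments.

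Among non-overlapping lncRNA genes, 131 had summits more than 200 bp from every protein-coding gene in both ENAP1 ChIP lists. Whether such a peak belongs to the lncRNA gene or to a protein-coding gene farther off was not tested. AT1G08673, 3467 bp from the nearest protein-coding gene, had 8.36-fold in ethylene at 1:23895623-23896134 and 7.06-fold in air at 1:23895549-23896151. It was also hit in reChIP, with 3.13-fold and 11 tags in ethylene and 3.69-fold and 8 tags in air. All 4 of its summits lay between 52 and 59 bp inside the gene edge.

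AT3G01425, 389 bp from AT3G04190, had 7.76-fold in ethylene and 9.78-fold in air. Its ENAP1 ChIP summits lay 59 and 49 bp outside the lncRNA gene, and 330 and 340 bp from the nearest protein-coding gene. Its ethylene reChIP peak at 3:1101434-1101677 reached 7.19-fold with 13 tags, the highest fold of the non-overlapping class in that list. AT3G05945 lay 17246 bp from the nearest protein-coding gene, PMAT2, and had 7.45-fold in ethylene, 8.74-fold in air and 4.07-fold with 5 tags in ethylene reChIP. Neither of these genes had an air reChIP summit, while AT1G08673 had a reChIP summit in both treatments. With so few tags in the reChIP lists, a missing summit does not show that the genes differ.

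AT2G05075, 33 bp from CAS1, the gene of cycloartenol synthase in sterol synthesis, had 7.69-fold in ethylene and 7.88-fold in air, with summits more than 500 bp from CAS1. AT1G07323, 1824 bp from the nuclear envelope protein gene WPP2, had 7.57-fold in ethylene and 6.63-fold in air. Neither gene had a reChIP summit. AT1G09737, whose ENAP1 ChIP summits lay in or beside AT1G77620, had 8.76-fold in ethylene and 7.37-fold in air, and AT1G06527, 2283 bp from AT1G32190, had 4.72-fold in ethylene and 8.02-fold in air. Both of the last genes had ethylene reChIP summits, of 5.84-fold with 7 tags and 2.9-fold with 3 tags. The ethylene reChIP peak of AT1G06527 had a q above 0.05.

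A −log10 q of 5 or more was reached by 133 peaks in ethylene reChIP, and 8 of them (6.02%, interval 2.63 to 11.5%) lay at lncRNA genes, against 3.32% of all peaks in that list. They hit 8 lncRNA genes (0.23%), 7 of them overlapping, against 0.477% of protein-coding genes. AT2G13665, mostly in AT2G13660, was the highest at 9.48-fold with 12 tags at 2:5692598-5693014, where ENAP1 ChIP had 5.28-fold in ethylene and 4.88-fold in air. AT3G59068, in AT3G59070, had 8.53-fold with 11 tags, and ENAP1 ChIP had 7.86-fold in ethylene and 5.23-fold in air. AT5G09405, inside the bromodomain protein gene GTE7, had 8.02-fold with 12 tags at 5:26228269-26228458, and it carried 4 ethylene reChIP summits in all. The summit of the 8.02-fold peak lay 89 bp outside the lncRNA gene.

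The other members of this group followed closely. AT1G67792, in AT1G67790, had 7.03-fold with 16 tags, and AT2G07475, over the gene SKIP6, had 6.68-fold with 12 tags. AT5G01375, over IQD24, had 6.36-fold with 8 tags and was the only gene of the 8 whose peak did not overlap an ethylene ENAP1 ChIP peak.

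In air reChIP the 2 highest peaks at lncRNA genes stood apart from ENAP1 ChIP. AT3G06355 had 9.38-fold with 32 tags at 3:14199547-14199703, and AT1G07017 had 9.04-fold with 100 tags at 1:14196295-14196492. Neither had an ENAP1 ChIP summit. The control level under these peaks, computed from pileup and fold, was 3.81 and 15.4 times the median of the list, and its part in the result was not tested.

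Below them, air reChIP peaks rested on few tags. AT5G09335, 326 bp from the MADS-box gene AGL78, had 5.77-fold with 11 tags, with 2.43-fold in ethylene and 2.3-fold in air ENAP1 ChIP. AT4G09765, 462 bp from SAUR15, a small auxin-upregulated RNA gene, had 5.62-fold with 8 tags, and ENAP1 ChIP had 2.6-fold in ethylene and 2.36-fold in air. AT1G17255, which overlaps the receptor-like protein gene RLP3, had 5.32-fold with 8 tags and no ENAP1 ChIP summit. The summit of that 5.32-fold peak lay 911 bp from the nearest protein-coding gene. AT5G01765, covered by the bromodomain protein gene GTE2 and AT5G10540, had 4.46-fold with 14 tags in ethylene reChIP and 4.7-fold with 13 tags in air reChIP, beside 3.97-fold in ethylene and 3.41-fold in air ENAP1 ChIP. The summits of these peaks lay 53 to 100 bp outside the lncRNA gene.

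Described lncRNAs were looked up whatever their values. The table lists AT5G01675 (COOLAIR, antisense to FLC) and AT1G69572 (FLORE, antisense to a CDF gene) as lncRNA, and lists APOLO, IPS1, AT4, MARS, ASCO, HID1, ELENA1 and DRIR under other biotypes, so these are not among the 3480. COOLAIR, 6230 bp long and 97.4% within FLC, had weak peaks at separate places in ENAP1 ChIP, of 1.77-fold in ethylene at 5:3179342-3179576 and 2.52-fold in air at 5:3173694-3173869. In ethylene reChIP it had 3.53-fold with 4 tags at 5:3175379-3175613. FLORE was hit in no list.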

How the data were processed

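The series held 6 samples of whole Arabidopsis seedlings with 1 library per group, grouped by title. For ethylene samples the titles and descriptions were followed over the treatment field, where air is written. The 4 immunoprecipitated samples had peak lists.

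Per the file headers, MACS2 2.1.0.20150603 called the peaks of each library against a single control (p cutoff 0.01, genome size 120000000 bp, at most 1 tag per position). The submitters' processing notes name BWA and TAIR10. The lists deposited by the authors hold, for each peak, a pileup signal in tags, −log10 values of p and q, and a fold enrichment, which is a ratio to the local control. Per the file headers, air reChIP and air ENAP1 ChIP share a control, and the ethylene reChIP was called against the air reChIP library.

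Genes came from a RefSeq table of a later release of the same assembly, used for names and gene positions. No coordinates of the table are printed, and all printed coordinates are peaks in TAIR10. As a check of register, shifting the table by 1000 to 10000 bp gave 20.4 to 22.3% of protein-coding genes hit in ethylene ENAP1 ChIP, against 27.0% unshifted. No sequences were used.

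A summit had to lie in the gene or within 200 bp of it. Shares have exact Clopper-Pearson 95% intervals and densities exact Poisson 95% intervals, for counting error only. Length weighting took the share of protein-coding genes in 6 length classes, weighted by the lncRNA genes. The control level was (pileup + 1) / fold − 1. Calculations used Python 3.11.15, pandas 2.3.3, numpy 2.4.6 and scipy 1.17.1, and the counting steps were tested on simulated data.

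The text could name 36 genes by rule: the 5 highest folds per list and class (1 gene per peak), the 5 with the highest summed fold ranks among genes hit in all lists, the 5 highest away from protein-coding genes, and described lncRNAs. The 2 other lists of names, from a single treatment and from −log10 q of at least 5, were chosen after the values were seen. The genes, lists and rules were chosen with earlier results of these data known. Alternatives were other limits on peaks (−log10 q, q, fold, number), windows, definitions of a hit and of overlap, and gene length.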

Additional observations from a re-analysis of the deposited data

How the results depend on the processing

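No paired analysis was possible because each group had 1 library, and no result came from a test. Sets of 4 values give ENAP1 ChIP in ethylene and in air, then reChIP in ethylene and in air. The median fold of peaks at lncRNA genes stayed within its spread under each alternative run.

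With −log10 q of at least 5, lncRNA genes were hit in 6.9, 8.33, 0.23 and 0.0575% of cases, overlapping ones in 11.5, 13.9, 0.493 and 0.0% and non-overlapping ones in 3.69, 4.47, 0.0486 and 0.0971%, which puts air reChIP overlapping below non-overlapping. The difference from protein-coding genes was -9.26, -11.3, -0.247 and -0.0701 points. With q of 0.05 or lower, the reChIP shares were 5.86 and 1.75% (overlapping 8.8 and 2.18%, non-overlapping 3.84 and 1.46%), and the differences -10.4 and -2.98 points. With folds at or above the list median, the shares were 6.64, 7.21, 5.46 and 3.85%, overlapping 9.71, 11.2, 8.23 and 4.22%, non-overlapping 4.52, 4.47, 3.55 and 3.59%, and the differences -8.44, -8.98, -9.77 and -7.94 points.

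With no widening, the shares were 8.91, 9.74, 6.58 and 4.94%, overlapping 11.8, 13.5, 9.78 and 5.28%, non-overlapping 6.95, 7.14, 4.37 and 4.71%, with a difference of -12.5 points in ethylene ENAP1 ChIP. With 500 bp, they were 16.6, 17.6, 12.9 and 11.8%, overlapping 23.4, 25.8, 18.4 and 13.3%, non-overlapping 11.9, 11.9, 9.03 and 10.8%. With any peak overlap, they were 14.5, 15.7, 10.3 and 8.79%, overlapping 20.7 and 23.4% in ENAP1 ChIP, with a difference of -15.2 points in ethylene ENAP1 ChIP. With at least 50% of the lncRNA gene covered as the definition of overlap, non-overlapping genes stood at 10.9% in air ENAP1 ChIP. With 8858 peaks per list, the difference was -14.3 points in ethylene reChIP. Within length classes the differences turned to 3.06, 3.08 and 0.504 points, and air reChIP stood at -0.337.

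For genes shared by ethylene and air ENAP1 ChIP, −log10 q of at least 5 gave 86.7% of ethylene and 71.7% of air genes, the same number of peaks 78.0% of ethylene genes, and no widening 72.3% of air genes. For ethylene reChIP with ethylene ENAP1 ChIP, −log10 q of at least 5 gave 87.5 and 2.92%, q of 0.05 or lower 19.1% of ENAP1 ChIP genes, and the median fold limit 24.7 and 20.3%. For air reChIP with ethylene ENAP1 ChIP, the values were 0.0 and 0.0%, 37.7 and 5.5%, and 20.1 and 11.7% under those limits, and 22.4% of ENAP1 ChIP genes with 500 bp. Where no construction shows the cause of a move, the cause was not tested. Depth limits the reChIP lists most, where 79.9% of ethylene and 72.3% of air peaks rested on at most 5 tags at the summit.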
